A study of Mus musculus with 12 samples.

Results

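The genes of the cardiac sarcomere, its Z-disc and the costamere were followed across left ventricles of male mice in which a tamoxifen-switched form of the transcription factor ATF6 was or was not active. The list holds 39 named genes, chosen by name from the proteins that build or anchor the contractile apparatus, out of 18193 genes that the array annotation names through a probe set with 1 symbol. Of the 39, 37 were found by symbol, and Murc was found through its synonym Cavin4. Xirp2 was not analysed here. The 38 genes had 77 probe sets, of which 72 lay above the filter on dim signal. Myom3 was the gene whose brightest probe set lay below it, with normalized log2 intensities from 6.58 to 9.91 over the 12 arrays, so 37 genes were tested.

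The 12 arrays came from 12 hearts, 3 in each of 4 groups: ATF6-MER transgenic (TG) mice given tamoxifen, TG mice given vehicle, non-transgenic (NTG) littermates given tamoxifen, and NTG littermates given vehicle. All were male mice of the C57 BL/6 strain, labelled about 30 weeks old except TG tamoxifen 1, labelled 40 weeks. ATF6-MER is ATF6 joined to a mutant estrogen receptor domain that keeps the fusion inactive until tamoxifen binds it, and in the mouse line of this name the transgene is driven in cardiomyocytes by the alpha-myosin heavy chain promoter. Neither the dose nor the duration of tamoxifen is stated in the labels. Every value below is a normalized log2 intensity, log2(intensity + 16) after quantile normalization, from the gene's brightest probe set unless another is named. A difference between 2 groups is followed by its standard error (SE, n = 3 per group), which limma takes from the spread within all 4 groups. An array outside the 2 groups can therefore change the SE and the adjusted p. Adjusted p values are from limma with Benjamini-Hochberg adjustment over the 11165 genes tested, with a threshold of 0.05.

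In a sarcomere, myosin thick filaments slide along actin thin filaments that troponin and tropomyosin switch on and off with calcium. Titin spans from the Z-disc, where alpha-actinin and many PDZ and LIM domain proteins tie opposing thin filaments together, to the M-band, where myomesins crosslink the thick filaments. Costameres and intercalated discs carry the force outward through desmin, dystrophin and vinculin to the membrane and the neighbouring cell, and inherited defects in many of these proteins cause cardiomyopathy.

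Some labels and some arrays stood apart. The title of TG vehicle 3 says vehicle and its treatment field says tamoxifen, and groups were taken from the titles. The probe set for the estrogen receptor gene Esr1, part of which is in the transgene, read between 16.66 and 18.25 on the 6 TG arrays and at most 10.88 on 5 NTG arrays. It read 17.72 on the array labelled NTG tamoxifen 1, where Hspa5, a main target of ATF6, read 18.05 against 18.37 to 18.47 on TG tamoxifen arrays and 15.49 to 16.39 on the other 8. The counts and the leading values that use this array are therefore given with and without it. TG vehicle 3, whose fields conflict, read 15.94 for Hspa5 and 14.14 for Rcan1, another gene higher in TG tamoxifen hearts, where TG tamoxifen arrays read 15.29 to 15.95 for Rcan1 and the other 2 TG vehicle arrays 13.76 and 13.35. The 3′ to 5′ signal ratio of beta-actin, a measure of RNA integrity, was 1.75 to 1.88 on TG tamoxifen arrays against 1.32 to 1.68 on TG vehicle arrays, and 1.78 to 1.97 on NTG tamoxifen arrays against 2.12 to 2.43 on NTG vehicle arrays. It did not overlap between drug and vehicle in either genotype. All 7 left ventricle marker genes were above the filter, and of 10 skeletal muscle markers 0 were.

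The promoters of the genes whose signal moved are shown first, since ATF6 binds DNA and since muscle genes commonly carry sites for serum response factor (the CArG box) and MEF2. The RefSeq promoter table (GRCm38.p6) held 48 windows for 35 of the 39 genes, each covering the 250 bases before an annotated start and read 5′ to 3′ on the gene's strand. It held no window for Tcap, Myot, Myom2 and Xirp1, so these genes were not searched. Capitals mark matches on either strand to the CArG consensus, the MEF2 consensus or the ATF6 element (TGACGTGG). The windows printed are those of genes called in TG tamoxifen against TG vehicle with such a match, 1 per gene. Genes not called there also had matches: Myl3, Actc1, Nebl, Dmd and Vcl to the CArG consensus, and Ttn, Myoz2 and Dmd to the MEF2 consensus. Myom3 and Xirp2, which were not tested, matched the MEF2 consensus too.

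Flnc (chr6:29433006-29433255, plus strand): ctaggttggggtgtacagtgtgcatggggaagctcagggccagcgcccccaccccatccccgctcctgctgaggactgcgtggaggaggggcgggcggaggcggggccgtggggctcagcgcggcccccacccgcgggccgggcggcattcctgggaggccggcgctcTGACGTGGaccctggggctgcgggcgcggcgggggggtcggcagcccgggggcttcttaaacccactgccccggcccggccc

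Synpo2l (chr14:20668355-20668604, minus strand): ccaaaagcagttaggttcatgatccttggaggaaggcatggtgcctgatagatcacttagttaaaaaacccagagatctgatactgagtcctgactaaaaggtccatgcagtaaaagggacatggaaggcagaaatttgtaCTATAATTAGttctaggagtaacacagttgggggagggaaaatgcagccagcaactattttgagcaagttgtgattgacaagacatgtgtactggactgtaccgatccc

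Myom1 (chr17:71019307-71019556, plus strand): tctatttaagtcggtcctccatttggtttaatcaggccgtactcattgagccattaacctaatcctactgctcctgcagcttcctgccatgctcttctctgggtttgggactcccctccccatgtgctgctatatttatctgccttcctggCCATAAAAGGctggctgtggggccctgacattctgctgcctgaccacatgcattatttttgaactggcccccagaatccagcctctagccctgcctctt

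Ldb3 (chr14:34588608-34588857, minus strand): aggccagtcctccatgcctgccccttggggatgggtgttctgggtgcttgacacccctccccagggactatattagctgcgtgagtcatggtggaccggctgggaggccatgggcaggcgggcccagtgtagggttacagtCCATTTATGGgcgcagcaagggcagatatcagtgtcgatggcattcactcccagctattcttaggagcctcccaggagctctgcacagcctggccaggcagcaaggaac

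Mybpc3 (chr2:91117894-91118143, plus strand): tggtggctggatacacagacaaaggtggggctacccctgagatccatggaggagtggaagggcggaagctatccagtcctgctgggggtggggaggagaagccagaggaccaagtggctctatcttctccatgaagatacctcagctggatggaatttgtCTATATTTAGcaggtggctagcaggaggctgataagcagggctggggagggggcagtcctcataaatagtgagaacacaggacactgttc

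Fhl2 (chr1:43196762-43197011, minus strand): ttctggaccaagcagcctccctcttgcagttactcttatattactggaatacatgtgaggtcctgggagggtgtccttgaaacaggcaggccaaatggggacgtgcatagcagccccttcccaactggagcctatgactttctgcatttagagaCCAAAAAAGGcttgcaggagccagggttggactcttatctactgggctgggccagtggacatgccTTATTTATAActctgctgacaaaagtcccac

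In the Flnc window the ATF6 element lies at bases -82 to -75 from the start, and it was the only match to that motif among the 48 windows (2.08%, against 0.563% of all 32851 windows of this length in the table). The ER stress response element, CCAAT and CCACG separated by 9 bases, was in 0 of the 48 windows and in 0.113% of all windows. The CArG consensus was in 10 windows of 8 genes (20.8%, against 1.47% of all windows) and the MEF2 consensus in 9 windows of 8 genes (18.8%, against 2.92%). The shorter MCAT motif CATTCC was in 22.9% of the 48 windows against 12.6% of all, and the GATA motif AGATAA in 18.8% against 9.99%. Windows of 1 gene can overlap: the CArG match of Ldb3 lies in both of its windows. In the Fhl2 window the CArG match at -96 to -87 and the MEF2 match at -31 to -22 do not overlap each other. Among these 6 genes, Flnc and Synpo2l read higher and the other 4 lower in TG tamoxifen than in TG vehicle hearts. Matches are letters in a window and show no binding.

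In TG hearts, tamoxifen went with lower signal for part of the contractile apparatus and higher signal for a few of its adaptors. Of the 37 genes tested, 4 were called higher and 11 lower in TG tamoxifen against TG vehicle (40.5% called, against 24.8% of all 11165 genes, 10.4% called higher and 14.4% called lower). The median log2 difference of the 37 genes was -0.27, and that of all genes was -0.07 (-0.44 and -0.12 in the deposited scaling). The Z-disc held most of the called genes, with 3 higher and 6 lower of 12 tested. The thick filament and its regulators had 2 lower of 6, the thin filament 2 lower of 8, titin and the M-band 1 lower of 3, and the costamere, intercalated disc and cytoskeleton group 1 higher of 8. Without the array labelled NTG tamoxifen 1, 4 were called higher and 13 lower (45.9%, against 29.3% of all genes). Every TG tamoxifen array lay above every TG vehicle array for 7 genes and below it for 17, where 19.8% and 24.4% of all genes did so, 44.2% together.

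The calls also changed with the settings for RNA quality and labels, and marker genes of cell types are given beside them. The beta-actin ratio did not overlap between drug and vehicle, so as a covariate it is not well separated from the groups. With the beta-actin ratio as a covariate, 0 of the 37 genes and 5 of all genes passed in TG tamoxifen against TG vehicle by limma, with 12 of the 37 at an unadjusted p under 0.05, and the 15 called genes kept their direction with log2 differences from -3.18 to 1.82. With TG vehicle 3 grouped by its treatment field, 0 of the 37 genes and 0 of all genes passed, with 13 of the 37 at an unadjusted p under 0.05. Without TG tamoxifen 1, the heart labelled 40 weeks old, 2 were called higher and 7 lower, and 13.1% of all genes were called. The same counts were reached when TG vehicle 3 was left out too, where 6.65% of all genes were called. With all arrays 24.8% of all genes were called. All marker counts below are in TG tamoxifen against TG vehicle, where 10.4% of all genes were called higher and 14.4% lower. Of 13 cardiomyocyte markers outside the sarcomere, 0 were called higher and 7 lower, and their summed intensity was 2010000 to 2130000 in TG tamoxifen hearts against 2620000 to 2700000 in TG vehicle hearts. Of 10 endothelial markers, 0 were called higher and 5 lower, with sums of 51200 to 55000 in TG tamoxifen hearts against 63800 to 88300 in TG vehicle hearts. Of 8 macrophage and leukocyte markers above the filter, 3 were called higher and 0 lower, with sums of 52100 to 69100 in TG tamoxifen hearts against 36500 to 65700 in TG vehicle hearts, and Cd3e and Cd79a of T and B cells lay below the filter. Of 9 fibroblast markers, 1 was called higher and 2 lower, with sums of 207000 to 237000 in TG tamoxifen hearts against 238000 to 275000 in TG vehicle hearts. Smooth muscle and pericyte markers had 0 higher and 1 lower of 7, with sums of 136000 to 181000 in TG tamoxifen hearts against 142000 to 156000 in TG vehicle hearts. Atrial markers had 0 called of 4, with sums of 84400 to 185000 in TG tamoxifen hearts against 32300 to 95800 in TG vehicle hearts, and Dkk3, Bmp10 and Mybphl lay below the filter. The sums did not overlap for cardiomyocyte, endothelial and fibroblast markers and overlapped for the other 3 lists. In bulk ventricle, fewer cells of a type and less RNA per cell cannot be told apart, and the part of cell composition in these results was not tested.

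**Figure D1:**
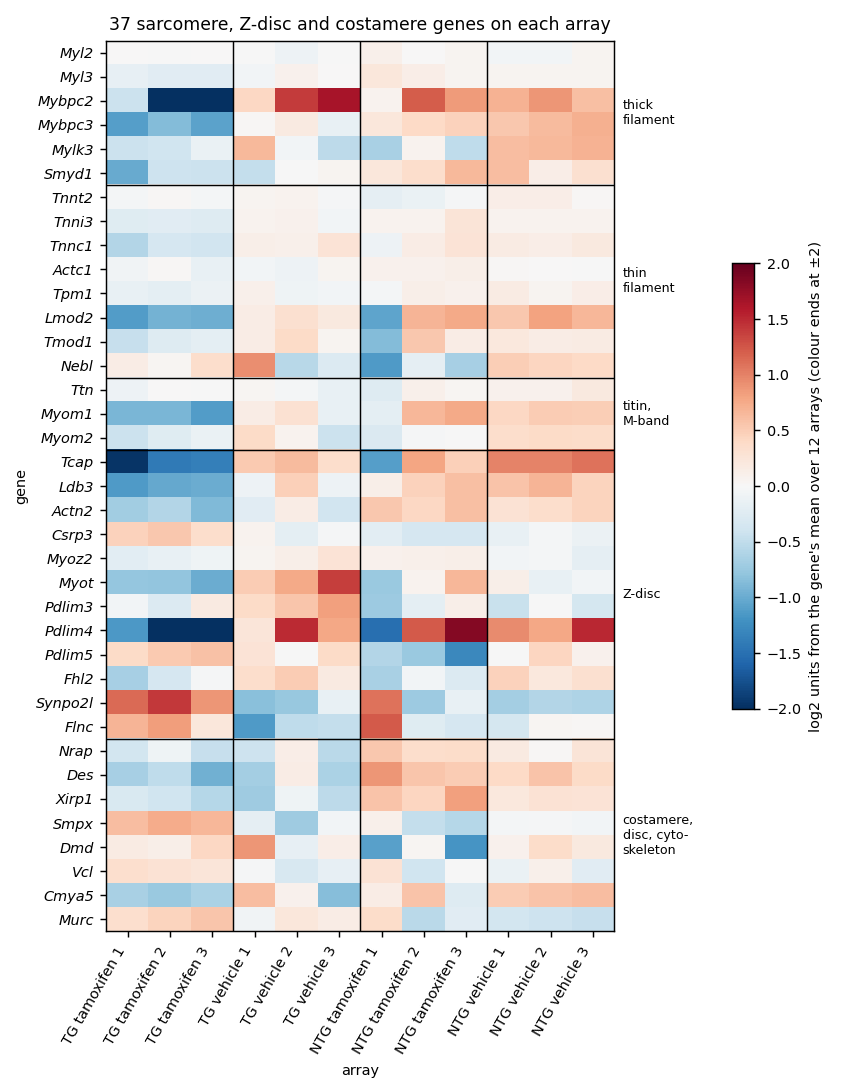
Heat map of the 37 tested genes (rows, grouped by role) on the 12 arrays (columns, the 6 TG arrays first, tamoxifen before vehicle in each genotype), coloured by normalized log2 intensity minus the gene's mean over the 12 arrays, with colours ending at ±2. Blue blocks in the first 3 columns mark genes such as Tcap, Ldb3 and Mybpc3, red blocks there mark Synpo2l, Flnc and Smpx, and the column of NTG tamoxifen 1 is unlike its neighbours for Lmod2, Tcap, Pdlim4, Synpo2l and Flnc.

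Among thick filament genes, Mybpc3, the cardiac myosin-binding protein C that sets how far myosin heads are free to act, read 15.74, 15.97 and 15.77 in TG tamoxifen hearts, against 16.86, 17.02 and 16.69 in TG vehicle hearts. It read 17.07, 17.23 and 17.31 in NTG tamoxifen hearts and 17.38, 17.48 and 17.55 in NTG vehicle hearts. All 3 TG tamoxifen arrays lay below all 9 others, and the difference between TG tamoxifen and TG vehicle was -1.03 ± 0.15 (adjusted p = 0.0021), or 2.04-fold lower. Mybpc2, the fast skeletal form of the same protein, read 9.62, 6.65 and 6.13 in TG tamoxifen hearts, against 10.47, 11.47 and 11.71 in TG vehicle hearts. Its NTG values were 10.13, 11.27 and 10.92 in NTG tamoxifen hearts and 10.76, 10.94 and 10.66 in NTG vehicle hearts. The TG tamoxifen arrays did not overlap with any other array, but 2 of the 3 lay below the filter level of 9.42 and they spanned more than the other groups, so the size of the difference (-3.75 ± 0.72, adjusted p = 0.00517) rests on dim readings.

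The remaining thick filament genes did not pass. Myl2, the ventricular regulatory light chain, read 18.54, 18.51 and 18.54 in TG tamoxifen hearts, against 18.51, 18.42 and 18.51 in TG vehicle hearts. The arrays overlapped, and the difference was 0.05 (95% interval -0.24 to 0.34), with the opposite sign in the deposited scaling (-0.33) and with median centring (-0.18). Myl3, the ventricular essential light chain, differed by -0.22 ± 0.13 (adjusted p = 0.258), Mylk3, the kinase that phosphorylates the regulatory light chain, by -0.34 ± 0.28 (adjusted p = 0.397), and Smyd1, a muscle methyltransferase needed for myofibril assembly, by -0.47 ± 0.23 (adjusted p = 0.147).

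On the thin filament, Lmod2, a leiomodin that promotes growth of actin filaments at their pointed ends, read 14.35, 14.51 and 14.48 in TG tamoxifen hearts, against 15.60, 15.79 and 15.65 in TG vehicle hearts. It read 14.41, 16.14 and 16.22 in NTG tamoxifen hearts and 15.99, 16.27 and 16.12 in NTG vehicle hearts. The TG tamoxifen arrays and the array labelled NTG tamoxifen 1 lay together at the low end, below the other 8 arrays. TG tamoxifen hearts were lower than TG vehicle hearts by 2.35-fold (-1.23 ± 0.38, adjusted p = 0.0339, and 0.000223 without NTG tamoxifen 1). Tnnc1, the calcium-binding troponin C of heart and slow muscle, read 17.18, 17.43 and 17.39 in TG tamoxifen hearts, against 17.87, 17.86 and 18.04 in TG vehicle hearts. Its NTG arrays read 17.67, 17.91 and 18.04 in NTG tamoxifen hearts and 17.92, 17.89 and 17.96 in NTG vehicle hearts. Again the TG tamoxifen arrays were below all others, by 1.51-fold against TG vehicle (-0.59 ± 0.15, adjusted p = 0.0187).

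The other 6 thin filament genes were not called. Tnnt2 (cardiac troponin T), Tnni3 (cardiac troponin I), Actc1 (cardiac alpha-actin) and Tpm1 (alpha-tropomyosin) differed by between -0.27 and -0.03 on the log2 scale. Tmod1, which caps the pointed ends of actin filaments, read 14.26, 14.45 and 14.52 in TG tamoxifen hearts, against 14.86, 15.10 and 14.78 in TG vehicle hearts. These arrays did not overlap, and the difference of -0.50 ± 0.29 had an adjusted p of 0.223, or 0.0376 without NTG tamoxifen 1. Nebl (nebulette, which binds thin filaments near the Z-disc) differed by 0.14 ± 0.34 (adjusted p = 0.794).

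Titin and M-band genes split. Myom1, a myomesin that crosslinks myosin at the M-band, read 14.85, 14.85 and 14.65 in TG tamoxifen hearts, against 15.92, 16.08 and 15.61 in TG vehicle hearts. It read 15.58, 16.43 and 16.52 in NTG tamoxifen hearts and 16.18, 16.27 and 16.26 in NTG vehicle hearts. Every TG tamoxifen array was below every other array, and the drop against TG vehicle was 2.12-fold (-1.09 ± 0.24, adjusted p = 0.00874). Ttn, the giant spring of the sarcomere, differed by 0.01 (95% interval -0.32 to 0.34) at its brightest probe set. Myom2, another myomesin of fast and cardiac muscle, differed by -0.27 ± 0.20 (adjusted p = 0.354), with overlapping arrays.

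Z-disc genes gave the largest differences among genes read well above the filter. Tcap (telethonin), which joins the ends of titin molecules at the Z-disc, read 14.41, 14.95 and 15.00 in TG tamoxifen hearts, against 16.88, 17.00 and 16.71 in TG vehicle hearts. It read 15.26, 17.15 and 16.83 in NTG tamoxifen hearts and 17.35, 17.35 and 17.45 in NTG vehicle hearts. The TG tamoxifen arrays were lowest, NTG tamoxifen 1 lay just above them, and the other 8 arrays were higher. TG tamoxifen was 4.23-fold lower than TG vehicle (-2.08 ± 0.39, adjusted p = 0.00441).

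Myot (myotilin), which binds alpha-actinin and filamin C, read 13.34, 13.32 and 13.12 in TG tamoxifen hearts, against 14.63, 14.87 and 15.51 in TG vehicle hearts. Values were 13.37, 14.18 and 14.78 in NTG tamoxifen hearts and 14.24, 13.97 and 14.06 in NTG vehicle hearts. The TG tamoxifen arrays were the 3 lowest, NTG tamoxifen 1 lay next to them, and all TG vehicle arrays were above all NTG vehicle arrays. The TG difference was -1.74 ± 0.32 (adjusted p = 0.00425), 3.34-fold lower. Ldb3 (cypher), a PDZ and LIM protein that binds alpha-actinin, read 14.96, 15.07 and 15.11 in TG tamoxifen hearts, against 15.99, 16.57 and 15.9998 in TG vehicle hearts. It read 16.22, 16.56 and 16.69 in NTG tamoxifen hearts and 16.67, 16.78 and 16.54 in NTG vehicle hearts. No TG tamoxifen array reached any other array, and the difference was -1.14 ± 0.20 (adjusted p = 0.00334), 2.21-fold lower.

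Actn2, the alpha-actinin that crosslinks actin at the Z-disc, read 16.30, 16.39 and 16.09 in TG tamoxifen hearts, against 16.75, 17.13 and 16.60 in TG vehicle hearts. Its NTG values were 17.53, 17.40 and 17.58 in NTG tamoxifen hearts and 17.28, 17.33 and 17.43 in NTG vehicle hearts. The order of the groups was TG tamoxifen lowest, TG vehicle next and both NTG groups highest, with no overlap at either step, and TG tamoxifen was lower than TG vehicle by 1.48-fold (-0.57 ± 0.17, adjusted p = 0.0332). Fhl2, a LIM-only protein that binds titin, read 16.88, 17.21 and 17.51 in TG tamoxifen hearts, against 17.89, 18.04 and 17.71 in TG vehicle hearts. It read 16.88, 17.48 and 17.26 in NTG tamoxifen hearts and 17.9995, 17.75 and 17.85 in NTG vehicle hearts. Both tamoxifen groups lay below both vehicle groups, and the TG difference was -0.68 ± 0.21 (adjusted p = 0.034).

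Pdlim4, a PDZ and LIM protein of the alpha-actinin binding family, read 9.25, 7.16 and 7.48 in TG tamoxifen hearts, against 10.64, 11.89 and 11.17 in TG vehicle hearts. It read 8.89, 11.63 and 12.24 in NTG tamoxifen hearts and 11.33, 11.17 and 11.90 in NTG vehicle hearts. All TG tamoxifen arrays and NTG tamoxifen 1 were below the filter level of 9.42 and the other 8 were above it, so the difference of -3.27 ± 0.77 (adjusted p = 0.012) is taken against dim readings. Pdlim3 of the same family differed by -0.64 ± 0.23 and missed the threshold (adjusted p = 0.0663, and 0.0309 without NTG tamoxifen 1), with arrays that did not overlap. Myoz2 (calsarcin, a calcineurin-binding Z-disc protein) differed by -0.30 ± 0.14 (adjusted p = 0.126).

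The 3 Z-disc genes called higher are adaptors and actin binders. Synpo2l, an actin-associated protein of heart and skeletal muscle Z-discs, read 16.67, 16.96 and 16.43 in TG tamoxifen hearts, against 14.71, 14.79 and 15.40 in TG vehicle hearts. It read 16.63, 14.83 and 15.41 in NTG tamoxifen hearts and 14.86, 14.96 and 14.93 in NTG vehicle hearts. TG tamoxifen arrays and NTG tamoxifen 1 lay above the other 8 arrays, and the TG difference was 3.3-fold higher (1.72 ± 0.37, adjusted p = 0.00853). Flnc (filamin C), which links actin at the Z-disc to the membrane, read 13.93, 14.10 and 13.48 in TG tamoxifen hearts, against 12.12, 12.75 and 12.77 in TG vehicle hearts. It read 14.47, 13.02 and 12.92 in NTG tamoxifen hearts and 12.90, 13.29 and 13.27 in NTG vehicle hearts. NTG tamoxifen 1 was the highest of the 12 arrays, and TG tamoxifen was 2.44-fold above TG vehicle (1.29 ± 0.37, adjusted p = 0.0273).

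Csrp3, the muscle LIM protein, read 18.34, 18.41 and 18.22 in TG tamoxifen hearts, against 17.94, 17.68 and 17.85 in TG vehicle hearts. NTG values were 17.66, 17.55 and 17.54 in NTG tamoxifen hearts and 17.73, 17.83 and 17.76 in NTG vehicle hearts. The TG tamoxifen arrays were above all others, by 1.42-fold over TG vehicle (0.50 ± 0.14, adjusted p = 0.0263). Csrp3 is bright and its difference was the smallest of the 15 called.

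**Figure D2:**
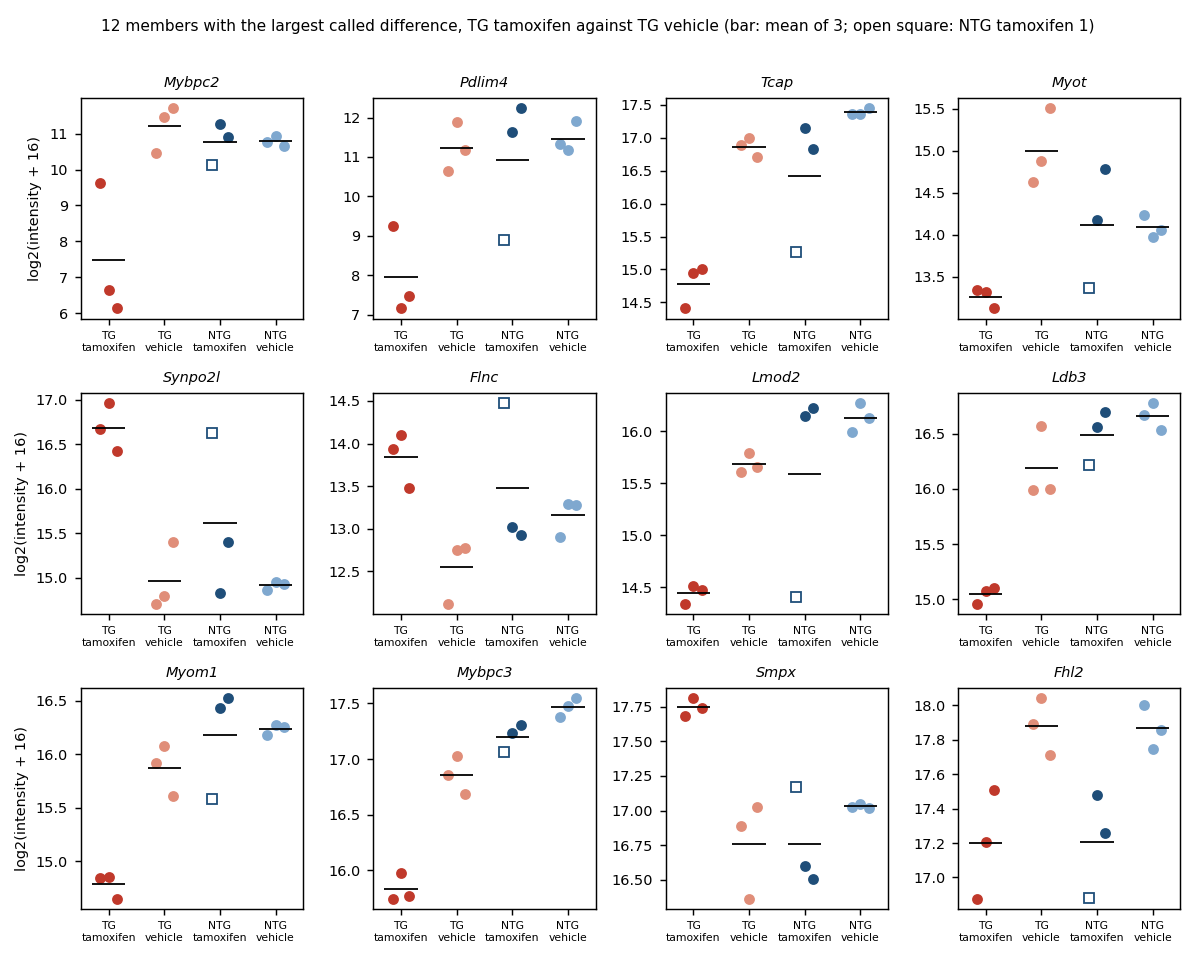
Normalized log2 intensity of the 12 called genes with the largest difference between TG tamoxifen and TG vehicle, 1 panel per gene, with a point for each array, a bar for the mean of 3 and an open square for the array labelled NTG tamoxifen 1. The open square lies close to the TG tamoxifen points for Tcap, Myot, Synpo2l and Lmod2 and above all TG tamoxifen points for Mybpc2, Ldb3 and Mybpc3.

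At the costamere and intercalated disc, Smpx, a small muscle protein found at costameres, was the gene called. It read 17.69, 17.81 and 17.74 in TG tamoxifen hearts, against 16.89, 16.36 and 17.02 in TG vehicle hearts. Its other values were 17.17, 16.60 and 16.51 in NTG tamoxifen hearts and 17.03, 17.05 and 17.02 in NTG vehicle hearts. The TG tamoxifen arrays were above every other array, and Smpx was 1.98-fold higher than in TG vehicle hearts (0.98 ± 0.21, adjusted p = 0.00858). Nrap, Des, Xirp1, Dmd, Vcl, Cmya5 and Murc did not pass, with differences from -0.62 for Cmya5 (myospryn) to 0.45 for Vcl (vinculin, adjusted p = 0.104). Vcl and Murc (cavin-4, of muscle caveolae) read higher on every TG tamoxifen array than on every TG vehicle array.

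The brightest genes of the list were not called. By rule these were Myl2, Myl3, Tnnt2 and Actc1, the highest means among the genes that did not pass. Actc1 read 18.35, 18.45 and 18.28 in TG tamoxifen hearts, against 18.37, 18.32 and 18.47 in TG vehicle hearts. Tnnt2 read 18.37, 18.43 and 18.37 in TG tamoxifen hearts, against 18.46, 18.47 and 18.38 in TG vehicle hearts. Myl3 read 18.30, 18.22 and 18.23 in TG tamoxifen hearts, against 18.40, 18.54 and 18.46 in TG vehicle hearts, and these 2 groups did not overlap for Myl3 (difference -0.22, 95% interval -0.51 to 0.08) and overlapped for Actc1 and Tnnt2 (-0.32 to 0.26 and -0.34 to 0.25). On every array, 7 of the members (Myl2, Myl3, Tnnt2, Tnni3, Actc1, Tpm1 and Ttn) were among the 100 brightest of 45037 probe sets. Their spread over 12 arrays was 0.21 to 0.52 after quantile normalization and 0.59 to 0.91 in the deposited scaling, so the normalized values of these genes spread less than the deposited ones. In the deposited scaling the difference between TG tamoxifen and TG vehicle was -0.51 ± 0.17 for Myl3 (adjusted p = 0.0433), which passed. There it was -0.39 ± 0.17 for Tnnt2 (adjusted p = 0.111), whose arrays then did not overlap, -0.37 ± 0.18 for Actc1 (adjusted p = 0.158) and -0.33 ± 0.19 for Myl2 (adjusted p = 0.214). With median centring the 4 differences lay between -0.36 for Myl3 and -0.18 for Myl2, and none passed.

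In NTG hearts, tamoxifen against vehicle called 1 of the 37 genes, Pdlim5 (ENH, a PDZ and LIM protein that binds alpha-actinin and protein kinase C), which was lower (2.70%, against 4.37% of all genes, 0.681% higher and 3.69% lower). Its brightest probe set read 15.63, 15.48 and 14.93 in NTG tamoxifen hearts and 16.22, 16.64 and 16.30 in NTG vehicle hearts, a difference of -1.04 ± 0.21 (adjusted p = 0.025). The groups did not overlap. Without the array labelled NTG tamoxifen 1, Pdlim5 was again the gene called (-1.18, adjusted p = 0.0286), against 3.75% of all genes. The median log2 difference of the 37 genes was -0.06, and -0.01 for all genes. That median was 0.04 without NTG tamoxifen 1, -0.17 without either of the other NTG tamoxifen arrays, and -0.21 with median centring, where that of all genes was -0.16. Summed smooth muscle and pericyte markers were 103000 to 146000 in NTG tamoxifen hearts against 214000 to 269000 in NTG vehicle hearts, and endothelial markers 66400 to 76900 in NTG tamoxifen hearts against 84300 to 94500 in NTG vehicle hearts. Neither sum overlapped between the groups, and their part in the results was not tested. Of the 72 probe sets, 1 passed (1.39%, against 3.89% of all probe sets), the others of Pdlim5 not among them, and Pdlim5 lost its call without NTG tamoxifen 3 or without any 1 of the NTG vehicle arrays.

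In vehicle-treated hearts, TG against NTG called 0 of the 37 genes by limma, with 11 at an unadjusted p under 0.05 (3.63% of all genes were called, 1.39% higher and 2.24% lower). The median log2 difference was -0.13, against 0.01 for all genes (-0.08 without TG vehicle 2 and -0.06 in the deposited scaling). Without NTG tamoxifen 1, 2 higher and 2 lower passed (10.8%, against 7.28% of all genes): Myot (0.91, adjusted p = 0.0467) and Pdlim3 (0.86, adjusted p = 0.0308) were higher in TG vehicle hearts, and Mybpc3 (-0.61, adjusted p = 0.035) and Des (-0.84, adjusted p = 0.0497) lower. In the fit of all arrays, adjusted p was 0.0529 for Mybpc3, 0.0613 for Xirp1, 0.0635 for Pdlim3 and 0.065 for Des. Without TG vehicle 2, 3 genes passed (3.77% of all genes did), and without TG vehicle 1, 1 gene passed (5.6% of all genes did). The beta-actin ratio did not overlap between these 2 groups either, and 0 of the 37 and 0 of all genes passed with it as a covariate. Smooth muscle and pericyte marker sums did not overlap here either (142000 to 156000 in TG vehicle hearts against 214000 to 269000 in NTG vehicle hearts), nor did fibroblast sums (238000 to 275000 in TG vehicle hearts against 194000 to 225000 in NTG vehicle hearts), and their part was not tested.

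Under tamoxifen, TG against NTG called the most genes: 6 higher and 14 lower of 37 (54.1%, against 39.5% of all genes, 19% higher and 20.6% lower). The median difference of the 37 was -0.25, and -0.06 for all genes (-0.48 and -0.14 in the deposited scaling). With all arrays the largest were Mybpc2 (-3.31), Pdlim4 (-2.96), Tcap (-1.63), Ldb3 (-1.44), Myom1 (-1.39) and Mybpc3 (-1.37), all lower in TG tamoxifen hearts. Without NTG tamoxifen 1 the largest were Pdlim4 (-3.97), Mybpc2 (-3.63), Tcap (-2.21), Lmod2 (-1.73), Myom1 (-1.69) and Ldb3 (-1.58), with Mybpc3 at -1.44. All 7 of these genes were among the genes lower in TG tamoxifen against TG vehicle, and the 2 comparisons share the TG tamoxifen arrays. The 8 genes called here and not in TG tamoxifen against TG vehicle were Pdlim5, Smyd1, Des, Xirp1, Nrap, Dmd, Murc and Tnni3. With the beta-actin ratio as a covariate 20 of the 37 and 41.5% of all genes were called. Without NTG tamoxifen 1 there were 7 higher and 16 lower (62.2%, against 42.9% of all genes). Cardiomyocyte marker sums were 2010000 to 2130000 in TG tamoxifen hearts against 2470000 to 2640000 in NTG tamoxifen hearts, with no overlap. In the same order, endothelial sums were lower (51200 to 55000 against 66400 to 76900). Fibroblast sums were higher (207000 to 237000 against 155000 to 199000), as were macrophage and leukocyte sums (52100 to 69100 against 34200 to 43300), all without overlap. Smooth muscle and pericyte sums and atrial sums overlapped. The part of these lists in the results was not tested.

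Des and Xirp1 are singled out after their values were seen. Des (desmin, the intermediate filament that ties Z-discs together) read 15.29, 15.44 and 14.99 in TG tamoxifen hearts, against 16.82, 16.50 and 16.46 in NTG tamoxifen hearts. The difference was -1.35 ± 0.23 (adjusted p = 0.00117; -1.24 and 0.00296 without NTG tamoxifen 1), and TG vehicle hearts read 15.27, 16.10 and 15.32, against 16.35, 16.53 and 16.33 in NTG vehicle hearts. Xirp1 (Xin, an actin-binding protein of intercalated discs) read 13.50, 13.41 and 13.23 in TG tamoxifen hearts, against 14.38, 14.24 and 14.63 in NTG tamoxifen hearts. Its difference was -1.04 ± 0.19 (adjusted p = 0.00151; -1.06 and 0.00252 without NTG tamoxifen 1). TG vehicle hearts read 13.10, 13.73 and 13.29, against 14.02, 14.10 and 14.08 in NTG vehicle hearts. At the brightest probe sets of both genes the TG arrays were below the NTG arrays with and without the drug. A dimmer probe set of Des, 1426732_at, read 9.75, 10.51 and 9.82 in TG vehicle hearts, against 8.82, 9.19 and 10.31 in NTG vehicle hearts, and did not pass (0.59, adjusted p = 0.318), nor did it in TG tamoxifen against NTG tamoxifen (-0.19, adjusted p = 0.704). At the brightest, TG tamoxifen against TG vehicle gave -0.32 for Des (adjusted p = 0.333) and 0.01 for Xirp1 (adjusted p = 0.984).

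The tamoxifen effect in TG hearts was also set against that in NTG hearts, the difference of the 2 differences. It passed for 3 genes in the positive direction and 4 in the negative (18.9% of 37, against 14.3% of all genes, 7.51% positive and 6.76% negative). Mybpc2 (-3.74 ± 1.019, adjusted p = 0.0339), Myot (-1.76 ± 0.45, adjusted p = 0.0272), Ldb3 (-0.97 ± 0.28, adjusted p = 0.0393) and Mybpc3 (-0.76 ± 0.22, adjusted p = 0.0407) had more negative effects in TG hearts. Pdlim5 (1.32 ± 0.30, adjusted p = 0.0182), Smpx (1.26 ± 0.30, adjusted p = 0.022) and Csrp3 (0.69 ± 0.20, adjusted p = 0.042) had more positive ones. Of the 72 probe sets, 3 passed in the positive direction and 2 in the negative (6.94%, against 10.6% of all probe sets). In that fit, adjusted over all probe sets, no probe set of Mybpc3, Ldb3 or Csrp3 passed. The median difference of the 37 was -0.27, and -0.07 for all genes. That median was -0.07 with median centring, where that of all genes was 0.18, -0.14 without NTG tamoxifen 2 and -0.15 without TG vehicle 2. Without NTG tamoxifen 1, 5 positive and 9 negative passed (37.8%, against 22.8% of all genes). The 7 genes passed there too, with -4.06 for Mybpc2, -2.13 for Myot, -1.11 for Ldb3, -0.83 for Mybpc3, 1.47 for Pdlim5, 1.46 for Smpx and 0.73 for Csrp3. Lmod2 was among the genes added: its difference was -0.70 (adjusted p = 0.387) with all arrays and -1.29 (adjusted p = 0.00292) without that array. Without any 1 of the other arrays the count was 0 to 8, with 0 without NTG vehicle 2. With the beta-actin ratio as a covariate 0 of the 37 passed, with 0 at an unadjusted p under 0.05.

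**Figure D3:**
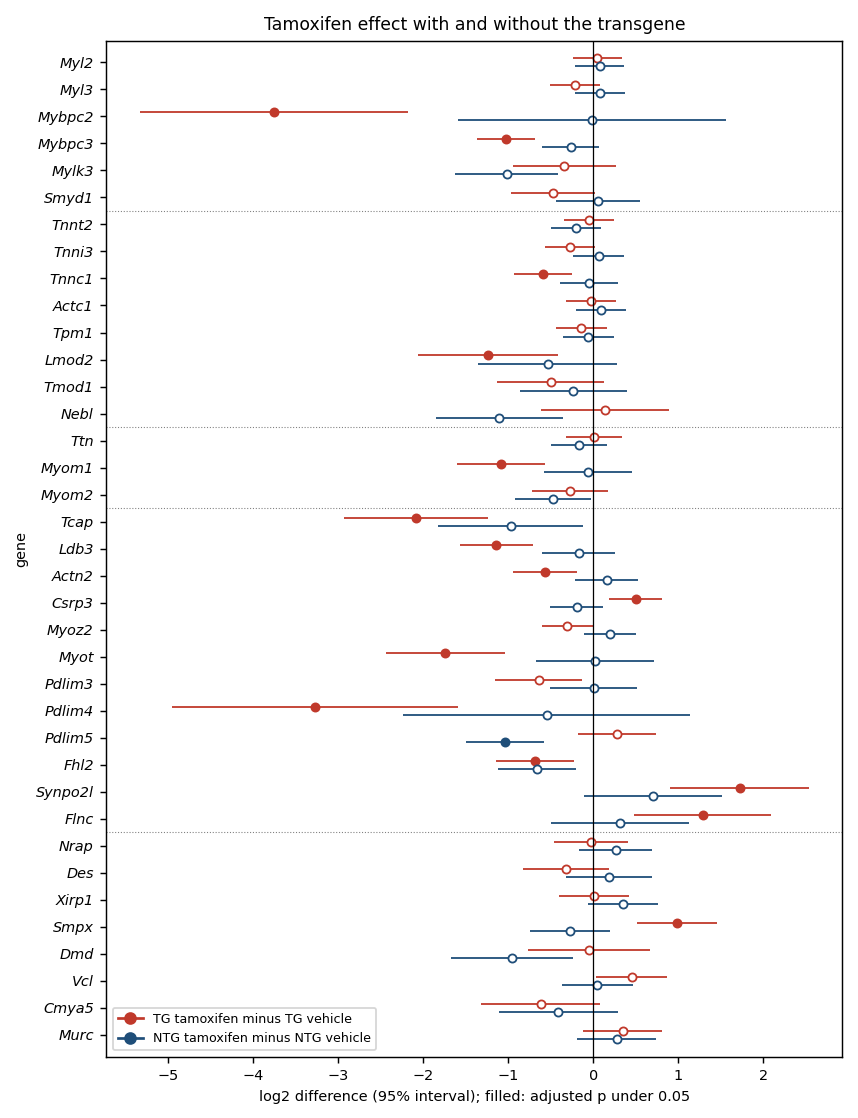
Log2 difference between tamoxifen and vehicle with its 95% interval for the 37 tested genes, in TG hearts (red) and NTG hearts (blue), with filled points for an adjusted p under 0.05. In TG hearts 15 genes are filled, from Mybpc2 at -3.75 to Synpo2l at 1.72, and in NTG hearts only Pdlim5 is filled, at -1.04.

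The array labelled NTG tamoxifen 1 lay apart within its group for these genes. For 11 of the 15 genes called in TG tamoxifen against TG vehicle it lay beyond all 3 TG vehicle arrays in the direction of TG tamoxifen, where NTG tamoxifen 2 and NTG tamoxifen 3 did so for 3 each and the NTG vehicle arrays for 3, 3 and 2. The 15 genes were chosen by their call in these same data. Positions were not counted over all genes called there, so these counts do not show whether this is particular to the members.

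Several genes had probe sets that disagreed, and the fit over all 22518 probe sets above the filter called 9 probe sets of the members higher and 12 lower of 72 in TG tamoxifen against TG vehicle (29.2%, against 18.3% of all probe sets). In TG tamoxifen against NTG tamoxifen they were 16 higher and 21 lower (51.4%, against 37.5%), and in TG vehicle against NTG vehicle 4 higher and 2 lower (8.33%, against 6.12%). Pdlim5 has 7, and its brightest, 1429783_at, differed by 0.29 (adjusted p over all probe sets = 0.383). Probe set 1450786_x_at of Pdlim5 read 14.42, 14.16 and 13.70 in TG tamoxifen hearts, against 10.71, 11.28 and 11.00 in TG vehicle hearts. The difference was 3.09 ± 0.60 (adjusted p = 0.00703). Probe set 1422861_s_at read 13.39, 13.19 and 13.04 in TG tamoxifen hearts, against 10.46, 10.44 and 10.54 in TG vehicle hearts, a difference of 2.73 ± 0.42 (adjusted p = 0.00313). Probe set 1427475_a_at differed by 1.74 ± 0.37 (adjusted p = 0.0104), while 1422862_at (2.27), 1422863_s_at (1.28) and 1421413_a_at (0.49) did not pass. Without NTG tamoxifen 1, 1422863_s_at (adjusted p = 0.000963) and 1422862_at (adjusted p = 0.0418) passed too. All 7 were higher in TG tamoxifen than in NTG tamoxifen hearts and passed there, by 1.37 to 3.73, and by 1.51 to 4.80 without NTG tamoxifen 1. Suffixes _s_at and _x_at mark probe sets that may match several transcripts, so these signals may include related transcripts.

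**Figure D4:**
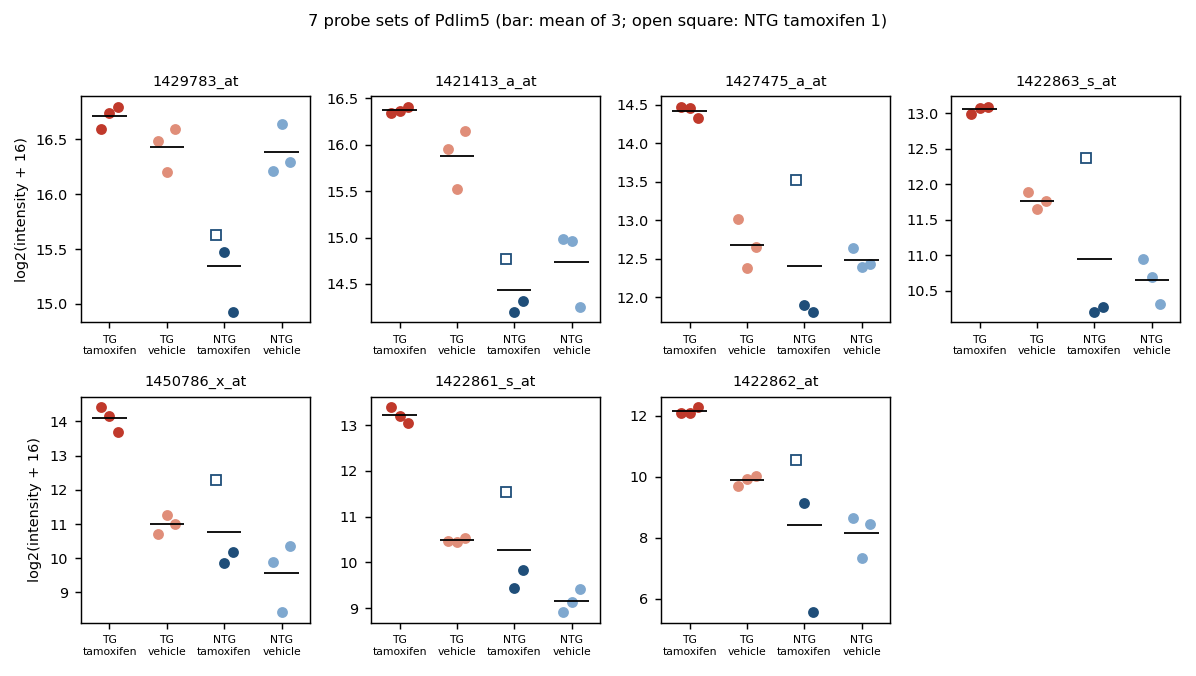
Normalized log2 intensity of the 7 probe sets of Pdlim5, 1 panel each, with a point per array, a bar for the mean of 3 and an open square for the array labelled NTG tamoxifen 1. TG tamoxifen arrays are above TG vehicle arrays in all panels, while NTG tamoxifen arrays lie below NTG vehicle arrays in the panel of the brightest probe set, 1429783_at, only.

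Ttn differed by probe set. In TG tamoxifen against NTG tamoxifen, 1444083_at read 14.79, 15.06 and 14.97 in TG tamoxifen hearts, against 16.53, 17.08 and 17.38 in NTG tamoxifen hearts, a difference of -2.06 ± 0.27 (adjusted p = 0.000453). There 1444638_at gave -1.72 ± 0.37 (adjusted p = 0.00398) and 1431928_at -1.05 ± 0.25 (adjusted p = 0.00696), while the brightest, 1427445_a_at, gave 0.01 ± 0.16 (adjusted p = 0.978). Without NTG tamoxifen 1 the first 3 gave -2.29, -2.13 and -1.30. In vehicle hearts 1444083_at read 15.31, 15.82 and 15.01 (TG) and 15.86, 15.99 and 16.51 (NTG). Over the 6 Ttn probe sets, tamoxifen against vehicle gave -0.69 to 0.01 in TG hearts and -0.29 to 1.06 in NTG hearts, with none called. Probe set 1440424_at of Tnnt2 read 13.71, 13.76 and 12.95 in TG tamoxifen hearts, against 15.11, 16.20 and 16.27 in NTG tamoxifen hearts. It was lower (-2.39 ± 0.42, adjusted p = 0.00157) while the brightest was not called (0.10). The value of 1440424_at was -2.77 without NTG tamoxifen 1. This probe set read 15.34, 14.39 and 13.90 in TG vehicle hearts, against 16.19, 15.34 and 16.19 in NTG vehicle hearts. Smyd1 was called in TG tamoxifen against NTG tamoxifen at 1441667_s_at (-1.03, adjusted p = 0.00556). It was not called at its other 4 probe sets above the filter, which gave -1.25 to 0.48. Averaged over all probe sets, Smyd1 differed by -0.10 there (adjusted p = 0.781). In TG tamoxifen against TG vehicle, 1447713_at of Tpm1 read 13.77, 14.05 and 14.11 in TG tamoxifen hearts, against 14.90, 15.07 and 15.04 in TG vehicle hearts. It was lower (-1.025 ± 0.22, adjusted p = 0.00961) while 1423049_a_at differed by -0.14. Among other probe sets of Ldb3, 1433783_at differed by -0.57 (adjusted p = 0.0741) and 1451999_at by -0.28 (adjusted p = 0.333). Synpo2l agreed at 1428295_at (1.64, adjusted p = 0.0257) but not at 1447658_x_at, whose arrays overlapped (-0.65, adjusted p = 0.47), and Flnc agreed at 1449073_at (1.38, adjusted p = 0.0229).

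In TG vehicle against NTG vehicle, probe sets of Nebl and Vcl moved where the brightest did not. Nebl 1451846_at read 13.01, 12.11 and 12.41 in TG vehicle hearts, against 10.99, 9.68 and 10.52 in NTG vehicle hearts (2.11 ± 0.36, adjusted p = 0.013), and Vcl 1416157_at read 11.57, 11.40 and 11.58 in TG vehicle hearts, against 10.76, 10.22 and 10.13 in NTG vehicle hearts (1.15 ± 0.27, adjusted p = 0.0348). Probe set 1456623_at of Tpm1 was lower in TG vehicle hearts (-1.42 ± 0.36, adjusted p = 0.0403) and 1446450_at of Ttn higher (0.93 ± 0.24, adjusted p = 0.0448). The brightest probe sets of Nebl and Vcl differed by -0.41 and -0.09. In TG tamoxifen against NTG tamoxifen, with all arrays, 2 of 3 Nebl probe sets were called higher (0.84 to 2.40 over all 3). There 1 of 2 Vcl probe sets was called higher (0.32 and 1.21). Of 3 Myom2 probe sets above the filter, 1 was called lower there (-1.21 to -0.16 over all 3). Dmd (dystrophin), which anchors actin to the membrane, was higher in TG tamoxifen than in NTG tamoxifen hearts at all 3 of its probe sets above the filter (0.98, 1.40 and 1.30), but the brightest lost its call without NTG tamoxifen 1 (adjusted p = 0.0967). In TG tamoxifen against TG vehicle these Dmd probe sets gave -0.05 to 0.32, and in TG vehicle against NTG vehicle 0.03 to 0.29. In NTG tamoxifen against NTG vehicle they gave -1.02 to -0.95. None of them was called in those comparisons.

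Genes near the members, from lists chosen with earlier results of these data known, moved in part. In TG tamoxifen against TG vehicle 24.8% of all genes were called, and 29.3% without NTG tamoxifen 1. In TG tamoxifen against TG vehicle, other sarcomere isoforms had 0 higher and 4 lower of 13 tested, led by Tmod4 (-2.03), Myh7b (-1.36), Tnnt1 (-0.98) and Lmod3 (-0.80). The dystrophin complex had 2 higher and 2 lower of 13: Sgca, alpha-sarcoglycan, was 4.7-fold lower (adjusted p = 0.00159) and Sgce was lower (-0.52), while Sgcd (0.91) and the dystrophin homologue Utrn (0.70) were higher. Sgca read 11.96, 11.94 and 11.99 in TG tamoxifen hearts, against 14.05, 14.45 and 14.08 in TG vehicle hearts, with no overlap. Integrin adhesion genes had 1 higher and 6 lower of 18: Itgb1bp2 (melusin, a muscle integrin-binding protein) was lower (-2.16, adjusted p = 0.00174), as were Lims2 (-1.07) and Parva (-0.93), and Itga7, the muscle laminin receptor subunit, was higher (1.20).

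Intercalated disc junctions had 0 higher and 2 lower of 12, Cdh2 (N-cadherin, -0.65) and Jup (plakoglobin, -0.63). Titin and Z-disc signalling, folding and turnover genes had 2 higher and 4 lower of 15: the calcineurin regulator Rcan1 (1.88) and the stretch-response gene Ankrd1 (1.24) were higher, and Obsl1 (-0.98) and the ubiquitin ligase Trim54 (-0.82) were lower. Transcription factors of sarcomere genes had 1 higher (Ankrd1, which both lists hold) and 3 lower of 16, with Hopx (-1.27, adjusted p = 0.00235), Mef2d (-1.03) and Gata6 (-0.98) lower. Under tamoxifen, TG against NTG called 2 higher and 10 lower of these 16 (75.0%, against 39.5% of all genes), and 2 and 9 without NTG tamoxifen 1 (against 42.9% of all genes). Without NTG tamoxifen 1 these counts in TG tamoxifen against TG vehicle were 0 and 4 for isoforms, 3 and 3 for the dystrophin complex, 1 and 6 for integrin adhesion, 0 and 3 for junctions, 2 and 4 for signalling, and 1 and 3 for transcription factors.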

How the data were processed

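Left ventricular RNA of 12 mouse hearts, labelled as separate animals in 4 groups of 3, was hybridised to 12 Affymetrix mouse expression arrays. The deposited table holds linear intensity per probe set for all arrays. On the first array, TG tamoxifen 1, the values have a mean of 2500.02 after trimming 2% at each end. The software that made them is not given in the sources used here. Here log2(intensity + 16) was taken, and because array medians spanned 0.355 the arrays were quantile normalized. Of 45101 probe sets, 64 controls were left out, and 34945 had 1 gene symbol, 932 several and 9160 none. The brightest probe set by mean over 12 arrays stood for its gene, and genes below the 50th percentile (intensity 670.3, log2 9.42) were left out, leaving 11165 genes. Group means were fitted in limma 3.58.1 (R 4.3.3; lmFit and eBayes, 2-sided, 8 residual and 3.55 prior degrees of freedom), with Benjamini-Hochberg adjustment over all genes in each of 5 comparisons and a threshold of 0.05. Probe sets were fitted likewise, 22518 above the filter. The scripts were tested on simulated data. With 3 arrays per group, the number of arrays limits the precision, and an exact test of 3 against 3 could not go below 0.1.

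Values per array are given for genes past the threshold in the TG pair, for some in other comparisons and for the 4 brightest genes that the TG pair did not call. They are also given for some of the genes whose probe sets disagree. Up to 4 genes of each other list are named. The member genes and all lists were chosen with earlier results of these data known, so their counts are descriptions and lend no independent support. Alternatives covered offset, scaling, filter, probe set rule, array weights, replicate block, label conflicts, RNA quality and each array left out.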

Additional observations from a re-analysis of the deposited data

Results flagged for a closer look

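For 7 of the 37 genes the tamoxifen effect in TG hearts differed from that in NTG hearts by limma's test of the difference itself. Of all genes, 14.3% passed that test. The difference, TG effect minus NTG effect on the log2 scale, was -3.74 for Mybpc2, -1.76 for Myot, -0.97 for Ldb3 and -0.76 for Mybpc3. It was 1.32 for Pdlim5, 1.26 for Smpx and 0.69 for Csrp3. The Pdlim5 value comes from its brightest probe set, where the NTG arrays fell with tamoxifen, while the mean of its probe sets gave 0.21 for that NTG effect with all arrays and -0.37 without the array labelled NTG tamoxifen 1. The Mybpc2 value rests on TG tamoxifen arrays of which 2 lay below the filter level. None of the 7 passed with the beta-actin ratio as a covariate (adjusted p from 0.758 to 0.855). Of 27 other settings, Pdlim5 passed in 21, Smpx in 20, Mybpc2 and Myot in 13 each, Ldb3 in 11, Mybpc3 in 9 and Csrp3 in 7.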

How the results depend on the processing

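Over 28 settings, 43 results gave 1197 values, of which 915 kept direction and side of the threshold, 280 kept direction and lost the threshold, and 2 reversed. The 43 results are the genes called in a comparison as reported, so calls gained in a setting are not among them. Settings not planned beforehand include leaving out probe sets that may match several transcripts. Leaving out NTG tamoxifen 1 together with TG vehicle 3 and TG tamoxifen 1 was not planned beforehand either. The NTG effect of Pdlim5 was 0.21 with the mean of all probe sets (adjusted p = 0.789). With that mean and NTG tamoxifen 1 left out, a setting chosen after seeing the data, it was -0.37 (adjusted p = 0.332), while Smyd1 in TG tamoxifen against NTG tamoxifen was 0.0205 (adjusted p = 0.963), and 17, 0, 3, 25 and 13 genes were called in the 5 comparisons in the order below. Of all genes, 25.2%, 0.269%, 4.46% and 38.9% were called in that setting, the difference between effects aside. The share of all genes called is given in brackets below. The count of genes called in TG tamoxifen against TG vehicle was 15 (24.8%). It was 9 with no filter (8.82%) and 9 without TG vehicle 3 and TG tamoxifen 1 (6.65%). With TG vehicle 3 regrouped it was 0 (0%), with the beta-actin ratio as a covariate 0 (0.0448%), and with each array left out 9 to 17 (13.1% to 29.3%). In NTG tamoxifen against NTG vehicle it was 1 (4.37%), and 4 with median centring (8.71%), 2 with array weights (6.7%) and 0 to 3 with each array left out (0% to 7.44%). There it was 0 with no filter, the 25th percentile filter, the mean of probe sets, only the groups compared or the replicate block. It was also 0 with TG vehicle 3 regrouped or the beta-actin covariate. The same held without TG vehicle 3 and TG tamoxifen 1, also when NTG tamoxifen 1 was left out with them. In these settings 0% to 2.1% of all genes were called. In TG vehicle against NTG vehicle it was 0 (3.63%), and 1 with the deposited scaling (4.15%) and 2 with median centring (4.95%). There it was 7 with array weights (11.5%) and 0 to 4 with each array left out (0.0179% to 7.28%). In TG tamoxifen against NTG tamoxifen it was 20 (39.5%), 13 with TG vehicle 3 regrouped (27.7%), and 14 to 23 with each array left out (30.4% to 42.9%). For the difference between the effects it was 7 (14.3%), and 4 with median centring (16.6%). It was 0 with no filter (1.98%), 2 with the 25th percentile filter (5.93%) and 3 with the mean of probe sets (10.8%). Array weights gave 12 (24%), the replicate block 4 (11.9%), TG vehicle 3 regrouped 0 (0%) and the beta-actin covariate 0. Without TG vehicle 3 and TG tamoxifen 1 it was 1, and 11 without these and NTG tamoxifen 1. With each array left out it was 0 to 14, with 0 without NTG vehicle 2 and 14 without NTG tamoxifen 1 (22.8%). The cause of these changes was not tested. Same-numbered hearts did not deviate together (r from -0.045 to 0.091 over 12 pairs, 0 above 0.1, 5 best matched to their own number), so the numbers do not pair the samples. With the replicate block 14 genes were called in TG tamoxifen against TG vehicle (22.1% of all genes). In TG tamoxifen against NTG tamoxifen 16 were called with that block (37.9% of all genes). Median centring moved the median of all genes to -0.16 in NTG tamoxifen against NTG vehicle and to 0.18 in the difference between effects. It gave 1542 higher and 1166 lower of all genes in TG tamoxifen against TG vehicle (1166 and 1608 as reported), 2553 and 1707 in TG tamoxifen against NTG tamoxifen (2116 and 2295), and 1518 and 335 in the difference between effects (838 and 755). For the genes of the list, TG tamoxifen against TG vehicle then gave 4 higher and 11 lower, and the deposited scaling 3 and 14 (1176 and 1814 of all genes).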
